A study of Homo sapiens with 24 samples.

Results

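The genes described here are 10 enzymes of sugar breakdown: PKM, GAPDH, ENO1, ALDOA, PGK1, TPI1, LDHA, LDHB, GPI and PFKL. Their splicing was read from 2459 rows of the deposited junction tables, out of 1830076 rows in each table, taken wherever a row lay on the strand and within the GENCODE span of a gene on GRCh37. Of these rows 831 were exon–intron boundaries and 1628 were spliced junctions. RNA-seq was done on poly(A) RNA of HCT116, a human colorectal carcinoma cell line, in 24 samples. Every cell expressed a PHF5A cDNA delivered by lentivirus, either wild type (WT) or with the mutation Y36C, and the cell's own PHF5A was not removed. Each genotype was treated for 6 h with the solvent DMSO or with E7107, a pladienolide derivative that binds the SF3b complex, for which the labels give no dose. Each of the 4 groups has 6 samples, and they are called WT DMSO and WT E7107 for the wild type and Y36C DMSO or Y36C E7107 for the mutant, and nothing in the labels says that the samples of a group were separate cultures, so p-values measure only the spread between these samples.

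PHF5A and SF3B1 are parts of SF3b, the portion of the U2 snRNP that holds the branch point adenosine at the 3′ end of an intron. Compounds of the pladienolide class occupy the pocket for that adenosine, and introns can then stay in the mRNA (intron retention, IR) or exons can be left out (exon skipping, ES). Glycolysis converts glucose to pyruvate in the cytosol, and lactate dehydrogenase turns pyruvate into lactate. GPI isomerizes glucose 6-phosphate, PFKL commits the sugar to the pathway, ALDOA splits it, TPI1 interconverts the resulting trioses, GAPDH oxidizes them, PGK1 yields ATP, ENO1 makes phosphoenolpyruvate, and PKM makes pyruvate and ATP. PKM pre-mRNA carries a pair of mutually exclusive exons: exon 9 gives the PKM1 isoform of muscle and brain, and exon 10 gives PKM2, the form of most proliferating and tumour cells.

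The values are percent spliced in (PSI), the share of reads at a splice site that take a given junction or run on into the intron. The retention of an intron is given below as the mean PSI of its 2 boundaries, over the 106 introns of the genes' reference transcripts. The files hold no read counts, so the depth behind a PSI is unknown. The number of splice sites with reads was lower in WT E7107 (281734 to 284117) than in the other groups (329014 to 340662). Sites of the epithelial genes EPCAM, CDH1, KRT8, KRT18 and KRT19 had reads in all samples, whereas CDX1 and CEACAM5 had no row and KRT20 had no site with reads in all samples. Of the genes of other cell types, PTPRC, CD3E, COL1A2 and GFAP had no row, but COL1A1 had reads in all samples at 85 of 101 sites.

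The sequences on which the PKM result turns are the exclusive exons, both on the minus strand of chromosome 15 in GRCh37, at chr15:72495363-72495529 (exon 9) and chr15:72494795-72494961 (exon 10). Each is coding and 167 bases long, and they share the base at 105 positions (62.9%). Capitals mark the positions at which they differ.
PKM exon 9: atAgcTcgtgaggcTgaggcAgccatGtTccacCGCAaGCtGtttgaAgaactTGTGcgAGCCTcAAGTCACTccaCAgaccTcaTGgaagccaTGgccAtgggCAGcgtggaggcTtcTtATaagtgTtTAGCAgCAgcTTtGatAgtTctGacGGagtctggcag
PKM exon 10: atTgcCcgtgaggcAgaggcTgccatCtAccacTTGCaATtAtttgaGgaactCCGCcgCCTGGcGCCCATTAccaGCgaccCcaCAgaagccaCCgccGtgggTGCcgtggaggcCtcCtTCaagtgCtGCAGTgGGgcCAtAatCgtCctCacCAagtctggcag

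The 3′ splice sites that compete for the donor of exon 8 are shown next, at chr15:72495520-72495579 and chr15:72494952-72495011 on the minus strand, with the AG that ends the intron in capitals and 10 exon bases after it.
PKM 3′ splice site of exon 9: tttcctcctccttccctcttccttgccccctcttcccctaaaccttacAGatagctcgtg
PKM 3′ splice site of exon 10: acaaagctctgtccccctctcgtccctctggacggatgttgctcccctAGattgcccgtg

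PKM exon choice differed between the genotypes and moved little with the compound. The exon 9 share was taken at the donor of exon 8, as the reads joining exon 8 to exon 9 out of those joining it to exon 9 or exon 10. In WT DMSO it ran from 10.04% to 11.7% with a median of 11.2%, and in WT E7107 from 9.47% to 11.3% with a median of 10.7%. In Y36C DMSO it ran from 4.48% to 5.63% with a median of 4.84%, and in Y36C E7107 from 3.82% to 4.13% with a median of 4.02%. Every Y36C sample thus lay below every WT sample, and exon 10 was the main exon in all 24 samples. The genotypes differed by -6.17 percentage points under DMSO and by -6.58 under E7107 (exact two-sided permutation test, p = 0.002165, the smallest that 924 splits allow, Benjamini–Hochberg adjusted p = 0.00361 over 5 comparisons for each). Within Y36C cells the share under E7107 differed from that under DMSO by -0.910 points (exact permutation p = 0.002165, adjusted p = 0.00361) and the groups did not overlap. Read at the acceptor of exon 11 instead, that difference was -0.520 points and the groups overlapped (exact permutation p = 0.0758). In WT cells the difference was -0.504 points at the exon 8 donor and 0.353 at the exon 11 acceptor, with overlapping groups at both (exact permutation p = 0.212 and 0.331). The effect of E7107 differed between the genotypes by -0.407 points (permutation p = 0.799 over 100000 draws). This test shuffled genotype labels within each treatment, so the large genotype difference widened its null spread. It therefore could not decide whether responses differed by so small an amount. In the fit over the whole table, the difference in response at the exon 8 to exon 9 junction was not called (log odds -0.12 ± 0.11 SE, limma adjusted p = 0.393).

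**Figure D1:**
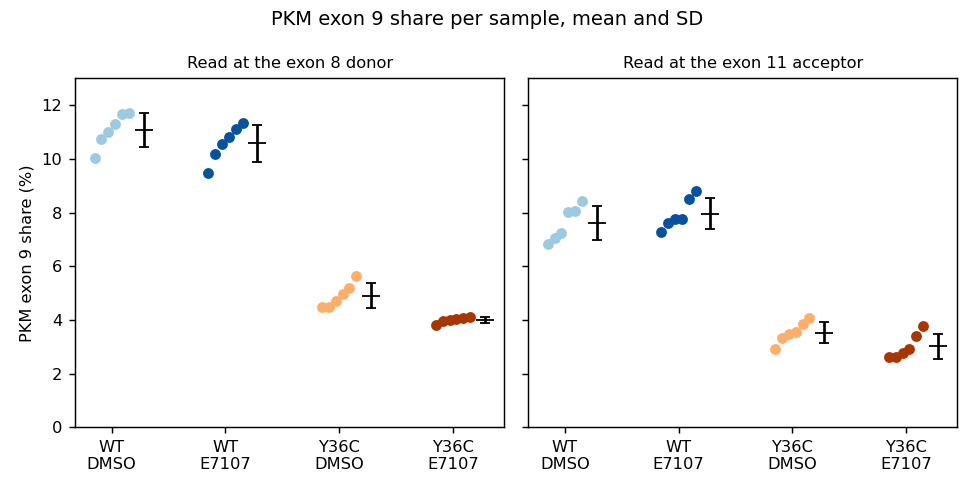
PKM exon 9 share in percent (y axis) for each of the 24 samples by group (x axis), read at the exon 8 donor (left) and at the exon 11 acceptor (right), with mean and SD beside the points. At the exon 8 donor the WT samples sit between 9.47% and 11.7% and the Y36C samples between 3.82% and 5.63%.

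The junctions were also tested in the fit over the whole table, where their calls under DMSO depended on the settings. In the Y36C DMSO against WT DMSO comparison, 3 of the 349 spliced rows of the 10 genes that could be tested were called, 1 higher and 2 lower in Y36C, all of them PKM junctions, against 0.0513% of all spliced rows called higher and 0.0456% called lower. The exon 8 to exon 9 junction had a PSI of 10.96% ± 0.645 (SD, n = 6) in WT DMSO and 4.87% ± 0.448 in Y36C DMSO (limma, log odds -0.78 ± 0.10 SE, Benjamini–Hochberg adjusted p = 0.0126). The exon 8 to exon 10 junction had 87.9% ± 0.556 and 94.2% ± 0.463 (log odds 0.72 ± 0.10, limma adjusted p = 0.0188). The exon 9 to exon 11 junction, read at the acceptor of exon 11, had 7.24% ± 0.605 and 3.41% ± 0.379 (log odds -0.67 ± 0.10, limma adjusted p = 0.0377). None of these PKM junctions was called by limma with an offset of 0.1 point (adjusted p = 0.0793 for exon 8 to 9, 0.105 for exon 8 to 10 and 0.124 for exon 9 to 11) or when only rows averaging 5% PSI or more were tested (0.0524, 0.0739 and 0.117). No boundary row of the 10 genes was called in this comparison by limma, out of 202 tested, 13 of which had an unadjusted p under 0.05, and in the whole data set 0.0877% of boundary rows were called higher and 0.0778% lower. Under E7107 the exon 8 to exon 9 junction again differed, with 10.4% ± 0.681 in WT and 3.97% ± 0.107 in Y36C cells (log odds -0.90 ± 0.10, limma adjusted p = 4.64e-06). Each genotype is its own population of transduced cells, so the mutation and other differences between the populations cannot be told apart.

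Exclusion of both exons was rare. The exon 8 to exon 11 junction had a mean PSI at the exon 8 donor of 0.0436% in WT DMSO and 0.187% in WT E7107, with 0.0227% and 0.140% in the Y36C groups, and neither E7107 comparison was called (limma adjusted p = 0.291 in WT and 0.497 in Y36C). Reads joining exon 9 to exon 10 made up at most 0.856% of those at the exon 9 donor in any group mean.

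Exon–intron boundaries were called higher under E7107 in WT cells in every gene but PFKL, and most introns of the reference transcripts stayed below 5%. Of the 106 introns, 95 had a mean retention under 5% in WT E7107 and 2 had over 10%, and the median intron went from 0.380% in WT DMSO to 1.22% in WT E7107. In Y36C cells the median intron went from 0.331% to 0.452%. Averaged over every boundary row of a gene, rarely used sites included, the median of the 10 genes went from 7.34% to 11.7% in WT cells and from 7.42% to 8.53% in Y36C cells, and GAPDH, ALDOA and LDHA reached 19.2%, 27.1% and 27.4% in WT E7107. On the same measure, all 202775 boundary rows of the files with reads in all samples went from 5.99% to 17.9% in WT cells and from 5.83% to 7.90% in Y36C cells. In WT E7107 against WT DMSO, 228 of the 831 boundary rows of the 10 genes could be tested, of which 129 were called higher and 7 lower, against 70.8% higher and 5.78% lower among all boundary rows tested. Of 336 spliced rows tested, 13 were called higher and 127 lower, against 7.35% and 39.8% of all spliced rows. In Y36C E7107 against Y36C DMSO, 19 of 203 boundary rows were called higher and 2 lower, against 26.8% and 1.26%, and 14 of 352 spliced rows were called higher and 27 lower, against 7.08% and 14.9%. When the response was PSI itself, untransformed, 13 boundary rows and 26 spliced rows were called in Y36C cells and 93 spliced rows in WT cells. Under E7107, Y36C against WT, 20 of 229 boundary rows were called higher and 121 lower, against 11.7% and 62.9% of all boundary rows, and 131 of 342 spliced rows higher and 33 lower, against 39.1% and 12%. The comparisons share their groups, so their counts are not independent. Of the boundary rows called, 27 of the 129 higher and 6 of the 7 lower in WT cells and 8 of the 19 higher in Y36C cells had samples at 0 in the lower group, so they passed the filter on low values through the higher group alone. Under E7107, Y36C against WT, the same held for 10 of the 20 boundary rows called higher, 27 of the 121 lower and 11 of the 131 spliced rows higher. In a fit without that filter all of these were called as well.

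**Figure D2:**
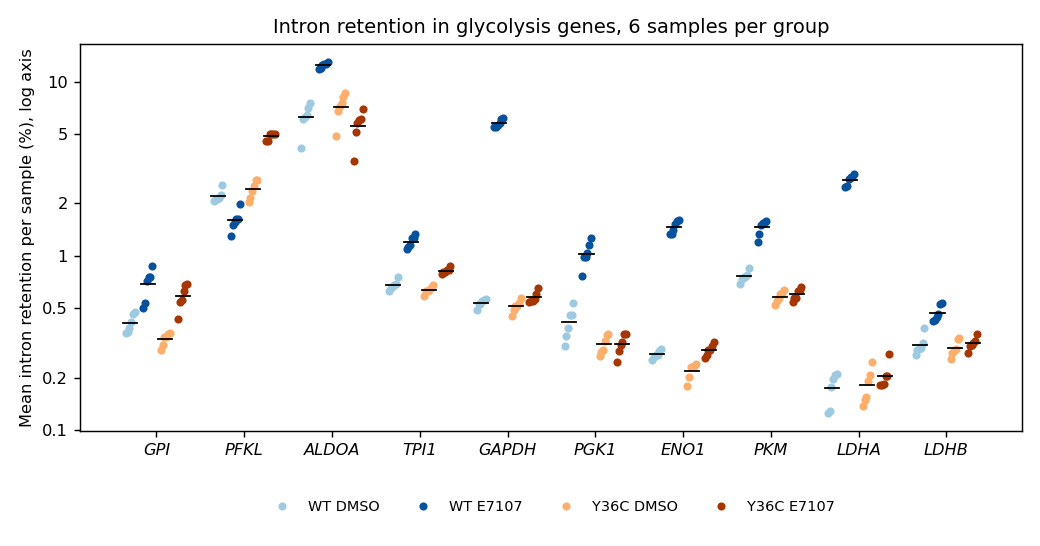
Mean retention over the introns of the reference transcript, in percent on a log axis (y axis), for each of the 24 samples by gene (x axis, in pathway order) and group, with the group mean as a line. In WT cells the mean of ALDOA rises by 6.17 points, that of GAPDH by 5.23 (to 5.77%) and that of LDHA by 2.55 (to 2.73%), and PFKL alone has lower values in WT E7107 and higher values in Y36C E7107 (4.84%) than in the matching DMSO group.

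Of the enzymes at the head of the pathway, PFKL went against the others. PFKL is the liver-type subunit of phosphofructokinase, which phosphorylates fructose 6-phosphate. Averaged over its 21 introns, retention was 2.07% to 2.56% in WT DMSO with a median of 2.12%, and 1.30% to 1.97% in WT E7107 with a median of 1.60%. In Y36C DMSO it was 2.05% to 2.72% with a median of 2.43%, and in Y36C E7107 4.54% to 5.02% with a median of 4.97%. The groups did not overlap in either genotype, and they moved in opposite directions. Among its reference introns, 23 boundaries could be tested in WT cells, of which 7 were called lower and 0 higher by limma (1 was higher at an unadjusted p under 0.05), and 24 in Y36C cells, of which 9 were called higher and 0 lower (0 lower at an unadjusted p under 0.05). In the test of the difference between the genotypes' responses, 16 of 26 PFKL boundaries were called higher in Y36C and 0 lower, whereas over the 10 genes 19 of 229 boundary rows were called higher and 113 lower, and over all boundary rows of the files 8.94% and 54.9%. Of 362 spliced rows of the 10 genes, 114 were called higher and 28 lower in that test, against 32.6% and 9.06%. Of the PFKL boundaries called, 6 of 7 in WT cells and 4 of 9 in Y36C cells entered through the higher group alone. Without the filter on low values all of these were called. The test of the difference took rows that passed in any 1 of the 4 groups, and such entries were not counted for it. Without the filter, 17 of 253 boundary rows of the 10 genes were called higher in that test and 114 lower.

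The PFKL introns with the greatest increase in Y36C cells were introns 16 and 19, on the plus strand of chromosome 21. Their 3′ ends are shown at chr21:45744314-45744373 and chr21:45745784-45745843, with that of intron 7, which fell in WT cells, at chr21:45736067-45736126. The final AG is in capitals.
PFKL intron 16, last 60 bases: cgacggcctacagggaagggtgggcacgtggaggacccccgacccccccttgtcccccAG
PFKL intron 19, last 60 bases: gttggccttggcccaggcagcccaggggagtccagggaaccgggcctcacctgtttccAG
PFKL intron 7, last 60 bases: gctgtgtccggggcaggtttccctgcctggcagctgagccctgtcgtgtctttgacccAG

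Retention of intron 19 was 10.3% to 12.96% in Y36C DMSO (median 10.8%) and 25.1% to 31.1% in Y36C E7107 (median 27.2%). In WT cells it was 8.21% to 11.5% under DMSO (median 9.50%) and 3.97% to 8.87% under E7107 (median 7.45%). The Y36C groups were apart and the WT groups overlapped. The rise in Y36C cells was called at the donor (log odds 1.15 ± 0.14 SE, limma adjusted p = 0.000107) and at the acceptor (0.97 ± 0.12, adjusted p = 0.000131), and the fall in WT cells only at the donor (-0.43 ± 0.14, adjusted p = 0.0231; acceptor adjusted p = 0.135). The response differed between the genotypes at both ends (interaction, limma adjusted p = 1.64e-07 and 2.12e-05).

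Intron 16 of PFKL was retained at 2.31% to 5.26% in Y36C DMSO (median 3.76%) and at 14.4% to 20.6% in Y36C E7107 (median 15.6%), with no overlap (limma adjusted p = 0.000157 at the donor and 2.36e-05 at the acceptor). In WT cells its means were 1.54% ± 0.503 and 1.67% ± 0.908 (SD, n = 6) and its groups overlapped. Its response differed between genotypes at the donor (log odds 1.41 ± 0.31 SE, limma adjusted p = 0.000507) and at the acceptor (1.59 ± 0.26, adjusted p = 2.07e-05). Intron 8, which is 92 bases long, also rose in Y36C cells, from 0.543% ± 0.148 to 6.13% ± 1.68 (limma adjusted p = 0.000240 at the donor and 2.43e-05 at the acceptor), against 0.909% ± 0.513 and 1.23% ± 0.679 in WT cells. It was picked for description after its values were seen, as were introns 2 and 6 below. Both boundaries of intron 8 entered the test in Y36C cells through Y36C E7107 alone. Without the filter on low values they were called (limma adjusted p = 0.000446 at the donor and 3.56e-05 at the acceptor).

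Introns 2, 6 and 7 of PFKL were called lower at both ends in WT cells. Intron 7 was at 1.84% to 7.68% in WT DMSO (median 3.51%) and at 0% to 0.962% in WT E7107 (median 0.460%), and the groups were apart (limma log odds -1.23 ± 0.26 and -1.29 ± 0.29 at its ends, adjusted p = 0.00134 and 0.00206). The 6 boundaries of these introns entered the test through WT DMSO alone, and without the filter on low values their limma adjusted p ran from 0.00154 to 0.0489. The WT DMSO and WT E7107 means were 3.95% and 1.05% for intron 2, and 2.50% and 0.538% for intron 6. In Y36C cells none of these introns was called (limma adjusted p of at least 0.132), and the means of intron 7 were 4.54% ± 1.59 and 5.35% ± 1.07.

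**Figure D3:**
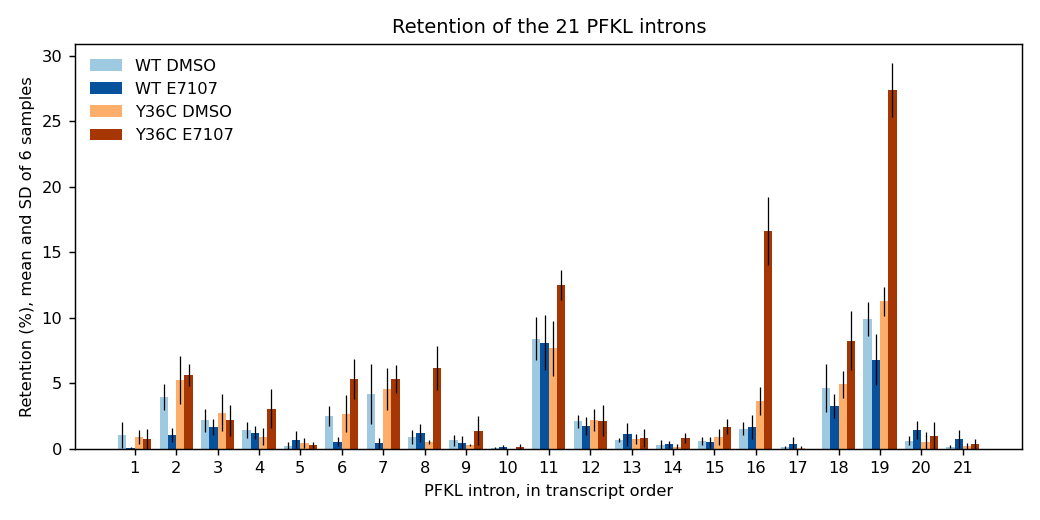
Mean retention in percent (y axis, from 0) of each of the 21 PFKL introns in transcript order (x axis) in the 4 groups, with SD over 6 samples as error bars. Introns 16 and 19 stand out in Y36C E7107 with 16.6% and 27.4%, and introns 2, 6 and 7 are lower in WT E7107 than in WT DMSO.

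Exon skipping also rose in PFKL in Y36C cells. The junction that leaves out exon 7 (chr21:45733566-45736126, read at the donor of exon 6) had a PSI of 0.457% to 1.62% in Y36C DMSO (median 0.902%) and of 9.36% to 13.9% in Y36C E7107 (median 11.1%). In WT cells it was at 0% to 2.94% under DMSO and at 0% to 2.75% under E7107. The Y36C E7107 samples were above all others. The log odds rose by 1.93 ± 0.14 SE in Y36C cells (limma adjusted p = 4.48e-06), the WT comparison did not pass the filter on low values, and the genotypes' responses differed by 1.64 ± 0.34 (limma adjusted p = 0.000274). With an offset of 0.1 point that difference in response was not called (limma adjusted p = 0.0804). The exon is 109 bases long, not a multiple of the codon length, and lies at chr21:45733766-45733914 on the plus strand with its flanks. Exon bases are in capitals.
PFKL exon 7 with 30 bases before and 10 after: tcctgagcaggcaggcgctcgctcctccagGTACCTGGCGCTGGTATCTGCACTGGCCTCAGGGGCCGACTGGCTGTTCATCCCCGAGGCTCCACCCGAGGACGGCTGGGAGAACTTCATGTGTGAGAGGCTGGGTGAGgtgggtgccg

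GPI, the first enzyme after glucose uptake and phosphorylation, had low retention throughout. Averaged over its 17 introns it was 0.412% ± 0.0495 in WT DMSO and 0.691% ± 0.144 in WT E7107, with 0.333% ± 0.0292 and 0.588% ± 0.0972 in the Y36C groups (SD, n = 6). Both E7107 groups lay above their DMSO groups without overlap. Of its reference boundaries, 8 of 31 were called higher in WT cells and 4 of 25 in Y36C cells, and none lower by limma. Intron 4 was the intron with the largest change in Y36C cells, from 0.785% to 1.56% under DMSO (median 1.41%) to 2.30% to 3.44% under E7107 (median 2.74%), called at both ends (limma adjusted p = 0.00224 and 0.0139). In WT cells its means were 1.57% ± 0.428 and 1.58% ± 0.517, and its response differed between the genotypes (limma adjusted p = 0.0155 and 0.0149). The intron 4 donor entered the test in Y36C cells through Y36C E7107 alone. Without the filter on low values it was called there (limma adjusted p = 0.00195). The intron with the largest increase in WT cells was intron 3, from 0.166% to 0.675%, called at its donor only (limma adjusted p = 0.0279). That donor entered the test through WT E7107 alone, and without the filter on low values its limma adjusted p was 0.0240. The call was lost with untransformed PSI as the response (limma adjusted p = 0.360) and with an offset of 5 points (0.1645). Intron 9 changed by -0.525 points, from 1.14% ± 0.323 to 0.617% ± 0.0877 in the WT groups, and was not called lower.

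Skipping of the next exon, exon 5 of GPI, rose in the same group. The junction from exon 4 to exon 6 (chr19:34859608-34868639) had a PSI of 0.0927% to 0.576% in Y36C DMSO (median 0.432%) and of 1.66% to 2.45% in Y36C E7107 (median 2.01%), and 0.329% ± 0.266 and 0.454% ± 0.177 in the WT groups. Its rise in Y36C cells passed the test (log odds 0.80 ± 0.11, limma adjusted p = 0.000321), in WT cells it did not (adjusted p = 0.530), and the difference between the genotypes did (0.70 ± 0.15, adjusted p = 0.000345). Junctions skipping GPI exons 14 and 17 were higher in Y36C E7107 by 0.734 and 0.420 points at the donor. Both had Y36C DMSO samples at 0 and entered the test through Y36C E7107 alone, and without the filter on low values they were called (limma adjusted p = 0.00164 and 0.0369). The exon 5 sequence, at chr19:34868378-34868501 on the plus strand with flanks, is shown because intron 4 ends at its start. Exon bases are in capitals.
GPI exon 5 with 30 bases before and 10 after: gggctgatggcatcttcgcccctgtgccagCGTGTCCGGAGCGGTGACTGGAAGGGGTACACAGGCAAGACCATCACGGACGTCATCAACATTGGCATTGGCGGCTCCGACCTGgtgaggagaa

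ALDOA, which splits fructose 1,6-bisphosphate, had the highest retention, through the introns beside its exon 2. This exon was used rarely: the junction from exon 1 past exon 2 to exon 3 held 99.1% ± 0.234 of the reads at its donor in WT DMSO and 97.5% ± 0.491 in WT E7107 (limma log odds -0.64 ± 0.12, adjusted p = 0.000500), and 99.2% ± 0.201 and 99.3% ± 0.224 in the Y36C groups. Intron 2 was retained at 19.4% to 27.3% in WT DMSO (median 25.4%) and 36.1% to 45.1% in WT E7107 (median 43.1%). In Y36C cells it was at 21.8% to 41.5% under DMSO (median 37.3%) and 17.8% to 31.4% under E7107 (median 20.8%). The WT groups were apart and the Y36C groups overlapped. These values average 2 unlike ends. At the donor, which belongs to the rarely used exon 2, mean PSI was 45.2% in WT DMSO and 80.4% in WT E7107. At the acceptor it was 3.16% and 4.46%. In Y36C DMSO and Y36C E7107 the donor was at 65.65% and 41.97%, and the acceptor at 2.58% and 2.57%. At the donor of intron 2 retention rose in WT cells (log odds 1.60 ± 0.19, limma adjusted p = 9.61e-06). It was lower there in Y36C cells (-0.9996 ± 0.29, adjusted p = 0.0276), a call that was lost without the filter on PSI (limma adjusted p = 0.0585).

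The remaining ALDOA introns, 3 to 9, rose in WT cells at both ends, from group means of 0.180% to 0.994% under DMSO to 3.01% to 5.42% under E7107. Intron 9, which is 87 bases long, was the intron with the largest increase in Y36C cells: 1.07% to 1.57% under DMSO (median 1.11%) and 2.71% to 3.93% under E7107 (median 3.19%), with no overlap (limma log odds 0.68 ± 0.11 and 0.67 ± 0.10, adjusted p = 0.00113 and 0.000547). In WT cells it went from 0.994% ± 0.182 to 5.18% ± 0.410, a larger rise (interaction, limma adjusted p = 0.00182 and 0.00302). It and introns of like length in GAPDH and PGK1 are printed whole, with the first and last pair of bases in capitals, at chr16:30081351-30081437, chr12:6645957-6646085 and chrX:77369397-77369512, all on the plus strand.
ALDOA intron 9: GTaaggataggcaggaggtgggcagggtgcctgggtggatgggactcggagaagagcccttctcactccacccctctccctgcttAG
GAPDH intron 4: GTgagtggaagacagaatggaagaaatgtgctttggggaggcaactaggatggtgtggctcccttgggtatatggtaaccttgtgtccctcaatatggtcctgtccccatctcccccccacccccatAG
PGK1 intron 3: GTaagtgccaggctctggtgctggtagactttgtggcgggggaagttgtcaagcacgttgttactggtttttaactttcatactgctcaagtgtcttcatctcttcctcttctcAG

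GAPDH, which oxidizes glyceraldehyde 3-phosphate, rose at every intron in WT cells. All 16 boundaries of its 8 introns were called higher in WT E7107, and 0 of 16 in Y36C E7107 by limma, where 0 also had an unadjusted p under 0.05. Averaged over introns, retention was 0.486% to 0.565% in WT DMSO (median 0.542%) and 5.48% to 6.14% in WT E7107 (median 5.69%), and 0.452% to 0.574% and 0.544% to 0.650% in the Y36C groups. Only WT E7107 stood apart from the other groups. Intron 4 reached the highest level, from 0.731% ± 0.0539 to 8.19% ± 0.331 (11.2-fold, limma log odds 1.74 ± 0.10 and 1.76 ± 0.10, adjusted p = 1.14e-08 and 1.10e-08), and intron 1 had the smallest change, from 0.872% ± 0.112 to 3.31% ± 0.346. The interaction was called at all 16 boundaries, lower in Y36C.

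TPI1 and PGK1 stayed at low levels. TPI1, the triose phosphate isomerase, had 8 of 12 boundaries called higher in WT cells, with intron 6 the largest, from 0.246% to 0.390% under DMSO (median 0.348%) to 1.07% to 1.47% under E7107 (median 1.32%; limma adjusted p = 0.00111 and 0.000315). The donor of intron 6 was not called with untransformed PSI as the response (limma adjusted p = 0.1045). Intron 1 of TPI1 was at 1.00% ± 0.159 and 1.06% ± 0.253 in the WT groups and was not called (adjusted p = 0.507 and 0.873). In Y36C cells the mean of TPI1 over its introns was 0.589% to 0.680% under DMSO (median 0.630%) and 0.786% to 0.868% under E7107 (median 0.820%), with no overlap. Its intron 5 had the largest change there, from 0.507% ± 0.0842 to 0.969% ± 0.104, also with groups apart, and was called at the donor (limma adjusted p = 0.0329, acceptor 0.138). That call was lost with untransformed PSI as the response (limma adjusted p = 0.164) and with an offset of 5 points (0.0996). PGK1, the phosphoglycerate kinase, had 15 of 20 boundaries called higher in WT cells and 0 of 10 in Y36C cells by limma, 0 of them with an unadjusted p under 0.05. Its intron 8 went from 0% to 0.176% under DMSO (median 0.0233%) to 0.856% to 1.82% under E7107 (median 1.497%). It was tested through WT E7107 alone, as were 9 of the 15 boundaries of PGK1 called, and without the filter on low values its limma adjusted p was 0.000960 at the donor and 4.14e-06 at the acceptor. With untransformed PSI as the response its donor was not called (limma adjusted p = 0.0575). The 116-base intron 3 of PGK1, printed above, was at 1.28% ± 0.418 in WT DMSO and 1.25% ± 0.497 in WT E7107, with overlapping groups and no call (limma log odds -0.02 ± 0.15 and -0.03 ± 0.16, adjusted p = 0.914 and 0.904), whereas introns of 83 to 129 bases in GAPDH and ALDOA rose.

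ENO1, the enolase, rose at all 22 boundaries of its 11 introns in WT cells and at 0 of 21 in Y36C cells by limma, 0 of them with an unadjusted p under 0.05. Intron 3 changed most in WT cells, from 0.917% to 1.10% under DMSO (median 1.02%) to 2.64% to 4.00% under E7107 (median 3.29%, limma adjusted p = 3.62e-05 and 9.46e-05). Intron 11 changed least, from 0.353% ± 0.0283 to 0.892% ± 0.0378 (limma adjusted p = 0.0128 and 0.0111). Neither end of intron 11 was called with an offset of 5 points (limma adjusted p = 0.116 and 0.0686). The mean of ENO1 over its introns was higher in all Y36C E7107 samples (0.257% to 0.318%) than in all Y36C DMSO samples (0.179% to 0.241%), and so was intron 4, with 0.464% ± 0.0538 against 0.302% ± 0.0542 (limma adjusted p = 0.523 and 0.327).

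In PKM, 14 of 20 reference boundaries were called higher in WT E7107 and 1 of 18 in Y36C E7107. Intron 4 changed most, from 0.231% to 0.400% in WT DMSO (median 0.312%) to 1.35% to 1.99% in WT E7107 (median 1.90%), with no overlap (limma log odds 0.71 ± 0.10 and 0.85 ± 0.11, adjusted p = 5.40e-05 and 3.15e-05). In Y36C cells its means were 0.235% ± 0.0592 and 0.241% ± 0.0526. The Y36C call was at the acceptor of intron 6, whose retention went from 0.162% ± 0.0435 to 0.499% ± 0.111 (limma adjusted p = 0.0233). That call was lost with untransformed PSI as the response (limma adjusted p = 0.2125) and with an offset of 5 points (0.120). Introns 6 and 7 of PKM start with GC, whereas the other 104 of the 106 introns start with GT and end with AG. The introns on either side of exon 10 were not called in either genotype: the one after it, intron 9 of the reference transcript, was at 3.63% ± 0.357 and 3.01% ± 0.373 in the WT groups and at 2.65% ± 0.262 and 2.42% ± 0.239 in the Y36C groups. Reads running on at exon 9 took a greater share of those at its sites. At its acceptor boundary PSI was 14.4% to 20.7% in WT DMSO (median 16.7%) and 16.6% to 30.9% in WT E7107 (median 23.7%; limma log odds 0.39 ± 0.15, adjusted p = 0.0424), with overlapping groups. In Y36C cells it was 24.7% ± 1.55 and 29.1% ± 4.61 and was not called (adjusted p = 0.284). The WT call was lost without the filter on PSI (limma adjusted p = 0.0515) and with an offset of 0.1 point (0.0896). It was also lost when only rows averaging 5% PSI or more were tested (0.0674).

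The lactate dehydrogenase genes differed in how their introns responded. LDHA, the subunit that predominates in many tumour cells, rose at all 14 boundaries of its 7 introns in WT cells. Averaged over introns it was 0.125% to 0.210% in WT DMSO (median 0.186%) and 2.48% to 2.95% in WT E7107 (median 2.80%). Intron 3 reached 4.23% ± 0.456 from 0.524% ± 0.0741 (limma log odds 1.19 ± 0.11 and 1.34 ± 0.10, adjusted p = 9.53e-07 and 1.73e-07). Of the 14 boundaries called in WT cells, 7 entered the test through WT E7107 alone, and all 7 were also called without the filter on low values. In Y36C cells the averages were 0.181% ± 0.0412 and 0.204% ± 0.0350, and 1 of 7 boundaries was called, the donor of intron 7 (limma adjusted p = 0.0487). This donor entered through Y36C E7107 alone (limma adjusted p = 0.0386 without the filter). It was not called with untransformed PSI as the response (0.2905) or with an offset of 5 points (0.181). LDHA also had the exon-skipping calls of WT cells within a reference transcript that did not involve ALDOA: skipping of exon 3 went from 0.0364% to 0.184% under DMSO to 0.456% to 1.09% under E7107, read at the acceptor (limma adjusted p = 0.00361), and skipping of exon 4 from 0.146% ± 0.0791 to 0.482% ± 0.134 (adjusted p = 0.0488). The exon 3 call was lost with untransformed PSI as the response (limma adjusted p = 0.205) and with an offset of 5 points (0.0570).

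LDHB, the subunit typical of heart, had 1 of 14 boundaries called higher in WT cells, the donor of intron 1, where PSI went from 0.204% to 3.04% (limma log odds 1.24 ± 0.10, adjusted p = 3.69e-07), while the acceptor of the same intron was at 0.107% and 0.132% (adjusted p = 0.856). Its introns 2 to 7 had group means of 0.0567% to 0.922% in WT E7107 and were not called at either end. The 3′ ends of the introns with the largest change in each gene are shown at chr11:18422324-18422383 (plus strand) and chr12:21807612-21807671 (minus strand), with AG in capitals.
LDHA intron 3, last 60 bases: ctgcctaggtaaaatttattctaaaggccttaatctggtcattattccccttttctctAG
LDHB intron 1, last 60 bases: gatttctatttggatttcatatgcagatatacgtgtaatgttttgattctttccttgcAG

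**Figure D4:**
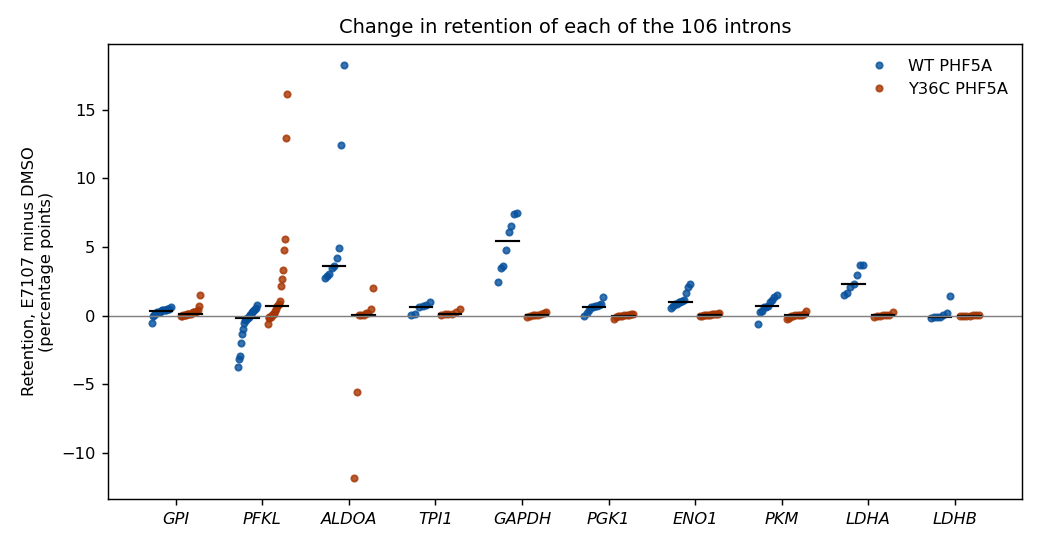
Change in retention, E7107 minus DMSO in percentage points (y axis), of each of the 106 introns by gene (x axis, in pathway order) in WT (blue) and Y36C (brown) cells, with the median of each gene as a line. The WT median is 5.43 points in GAPDH, 3.64 in ALDOA, 2.31 in LDHA and -0.0836 in LDHB, and the points above 10 are PFKL introns in Y36C cells and ALDOA introns in WT cells.

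The genes differ in base composition and intron length. The median intron GC content was 35.1% in LDHB, 42.5% in LDHA, 61.1% in GAPDH and 66.8% in PFKL, and the median length was 116.5 bases in GAPDH and 2790 in LDHB. Across the 106 introns, which share transcripts and libraries, the Spearman correlation of GC content with the change in retention was -0.134 (Pearson's r 0.0403) in WT cells and 0.426 (r 0.234) in Y36C cells. Within PFKL, with 21 introns, the Spearman correlation in Y36C cells was 0.388, and within GPI, with 17 introns, it was -0.162. The Spearman correlation of the share of C and T in the 20 bases before the final AG with the change was 0.240 in WT and -0.0597 in Y36C cells.

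HK2, PFKFB3 and SLC2A1 had the highest retention in WT E7107 among the other named genes of the pathway. Of 35 listed genes, 27 had rows and 18 had a boundary that could be tested in WT cells. Of their 203 boundary rows tested in WT cells, 126 were called higher and 40 lower, against 70.8% and 5.78% of all boundary rows, and of 167 in Y36C cells, 35 and 0, against 26.8% and 1.26%. The named genes were those with at least 6 tested rows, which were 10. HK2, which phosphorylates glucose, was called higher at 30 of 30 rows, with mean retention over its reference introns of 38.5% to 40.7% in WT E7107 against 0.947% to 1.38% in WT DMSO. PFKFB3, which makes the activator of phosphofructokinase, was called at 26 of 26 rows (0.777% ± 0.163 to 40.8% ± 3.41), and the glucose transporter SLC2A1 at 18 of 18 (0.755% ± 0.106 to 37.2% ± 2.73). In Y36C E7107 the same means were 1.66% ± 0.241 for HK2, 1.26% ± 0.170 for PFKFB3 and 1.17% ± 0.0811 for SLC2A1. The mean of each of the 10 enzymes in WT E7107 was lower, at most 12.4%. The counts of rows called in these other genes carry the same limit of the filter on low values. In WT DMSO the median boundary row was at 0% in every sample for PFKFB3 and at 0% to 0.650% for HK2. Rows with a WT DMSO sample at 0 entered the WT test through WT E7107 alone, and how many did so was not counted.

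ADPGK and the lactate transporter SLC16A1 followed, with a mean change over their tested rows of 11.9 and 11.97 points in WT cells, then PGAM1, the mutase between PGK1 and enolase, with 8.24, and the lactate exporter SLC16A3, with 7.66. The other phosphofructokinase subunits are PFKP and PFKM. PFKP had 1 row called higher and 11 lower of 23 in WT cells and 8 higher and 0 lower of 27 in Y36C cells, and PFKM had 11 higher and 7 lower of 33 in WT cells and 7 higher and 0 lower of 25 in Y36C cells. Mean retention of PFKP over its introns was 0.769% ± 0.0654 and 0.716% ± 0.0922 in the WT groups and 0.738% ± 0.0883 and 1.84% ± 0.201 in the Y36C groups. ENO2, the neuronal enolase, was called lower at 9 of 11 rows in WT cells and not called in Y36C cells, with means of 6.95% ± 1.25 and 2.57% ± 0.480 in the WT groups.

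**Figure D5:**
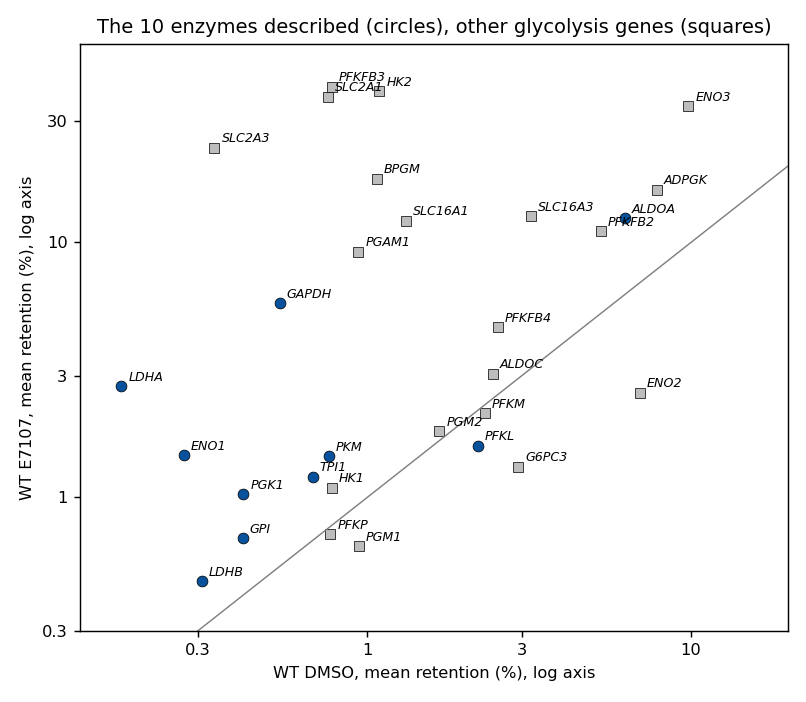
Mean retention over reference introns in WT E7107 (y axis) against WT DMSO (x axis), in percent on log axes, for the 10 enzymes (circles) and the other glycolysis genes with reads in all samples (squares), with the line of equal values. HK2, PFKFB3 and SLC2A1 lie at 37.2% to 40.8% in WT E7107, while of the 10 enzymes ALDOA is the highest with 12.4% and PFKL lies below the line.

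Junctions with an end at no annotated splice site were few. Of 23 such rows tested in WT cells 1 was called higher and 1 lower, against 7.35% and 39.8% of all spliced rows, and of 40 in Y36C cells 4 were called higher and 0 lower, against 7.08% and 14.9%. A PFKL junction of this kind (chr21:45739295-45739966) was at 0.472% to 2.42% in WT DMSO and 0% to 0.966% in WT E7107. In Y36C cells it was at 0.467% to 1.37% and 1.14% to 3.26%, with overlapping groups in both genotypes. It was called lower in WT (limma adjusted p = 0.0309) and higher in Y36C cells (adjusted p = 0.0342), and the responses differed (adjusted p = 0.000872). In WT cells it entered the test through WT DMSO alone. Without the filter on low values it was called in WT (limma adjusted p = 0.0458) and not in Y36C cells (0.0569). A GPI junction (chr19:34888303-34890111) had a mean of 0.0383% in Y36C DMSO and 0.524% ± 0.331 in Y36C E7107. It entered the test through Y36C E7107 alone and was not called without the filter on low values (limma adjusted p = 0.0596).

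Some rows lie outside the reference transcripts or share their place with other genes. In PGK1 95 of 180 rows did, where its span overlaps ATP7A on the same strand, and in PKM 21 of 266, including an alternative first junction whose PSI went from 96.7% ± 8.17 to 62.2% ± 10.7 in WT cells (limma adjusted p = 8.17e-05). ALDOA, LDHA, LDHB and GPI overlap another gene on the same strand, and GAPDH, ENO1, ALDOA, PGK1, TPI1 and LDHB overlap one on the opposite strand. Averaged over every boundary row in place of the reference introns, retention in WT DMSO and WT E7107 was 14.7% and 14.3% in GPI, 21.1% and 27.4% in LDHA and 11.6% and 19.2% in GAPDH (authors' PSI, n = 6). These means weigh rarely used sites as much as the main ones, and on them the GPI groups overlapped.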

How the data were processed

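Poly(A) RNA of 24 HCT116 samples was sequenced. The authors aligned reads to hg19 with STAR, counted junction reads and deposited PSI values in percent, which give the share of a junction or exon–intron boundary in all reads at its splice site. Read counts were not used here, so counting error could not be given, and the precision rests on the spread of 6 samples. Genotype and treatment were taken from the sample titles.

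Rows of the mitochondrial genome or without strand (6433) were left out, and a site whose percentages summed to 0 was treated as missing. Genes, exons and reference transcripts came from GENCODE lifted to GRCh37, and sequences from the GRCh37 genome read with pysam 0.24.0. Boundaries span 2 bases. PSI was tested with limma 3.58.1 in R 4.3.3 on the natural-log odds with an offset of 1 percentage point, over rows whose site had reads in each compared sample and whose PSI exceeded 0 throughout 1 or more of the groups, with Benjamini–Hochberg adjustment over all rows and calls at an adjusted p of 0.05 or less. Rows with the same value in every sample were dropped. Thus a row with a sample at 0 in a group enters only through a group without one. Pairwise comparisons used 12 samples and the interaction 24. The step was tested on simulated data. The strandedness of the libraries is not given in the sources used here, so reads of overlapping antisense genes could not be told apart. Retention was taken over the introns of the reference transcript in the text. The mean over all boundary rows had been laid down as the main measure, and the closing section gives both.

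Introns named were, per gene, those with the largest and smallest signed change in WT cells and the largest in Y36C cells among introns with both boundaries tested. Junctions named were the called skipping junction and the called junction at an unannotated site with the largest change, with all PKM junctions among exons 8 to 11. Other glycolysis genes named were the 5 with the largest and the 5 with the smallest mean change in WT cells. Genes, lists and tests were chosen with earlier results of these data known. Alternatives covered the offset, the response scale, the filters, the replicate block, the samples fitted, the splice site used for the PKM share and the summary of retention. Same-numbered samples did not deviate together (mean correlation 0.000673 over 36 pairs, none over 0.1), so the numbers were not taken to pair samples.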

Additional observations from a re-analysis of the deposited data

Results flagged for a closer look

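The response to E7107 differed between the genotypes (interaction, limma, Benjamini–Hochberg adjusted p of 0.05 or less) at 19 boundary rows of the 10 genes in the direction of more retention in Y36C and at 113 in the direction of less, and at 114 spliced rows higher in Y36C and 28 lower. Among the named introns with a difference at both ends, the change in retention in Y36C minus that in WT was positive in PFKL introns 16, 7 and 19 (12.8, 4.54 and 19.2 percentage points) and in GPI intron 4 (1.496). It was negative in PKM introns 4 and 6 (-1.504 and -0.799), in GAPDH introns 4, 1 and 7 (-7.30, -2.32 and -5.87), in ENO1 introns 3, 11 and 4 (-2.17, -0.503 and -1.94), and in ALDOA introns 2, 3 and 9 (-30.1, -2.68 and -2.15). It was also negative in PGK1 intron 8 (-1.34), TPI1 intron 6 (-0.842), LDHA introns 3, 6 and 7 (-3.82, -1.57 and -2.70) and GPI intron 3 (-0.544).

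Of 92 groups of 6 samples screened, 4 held a sample far from the others by Dixon's criterion, of which chance gives about 1 in 20. Over all boundary rows these were the highest PGK1 sample of Y36C DMSO at 2.87% and the lowest LDHA sample of Y36C DMSO at 19.2%. Over reference introns they were the highest LDHA sample of Y36C E7107 at 0.272% and the highest PFKL sample of WT DMSO at 2.56%. These screens cover the mean retention of each gene and the PKM exon 9 share.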

How the results depend on the processing

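Replicate numbers are shared by the groups but do not pair samples. With the replicate block, called boundary rows of the 10 genes in the Y36C drug comparison numbered 10 (21 without), called spliced rows there 25 (41), and called spliced rows in the DMSO comparison 0 (3). The lower value of the ALDOA intron 2 donor in Y36C cells was not called with it (limma adjusted p = 0.0709). The block moved no other count of calls by more than 1.5 times.

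With PSI in percent as the response, called spliced rows numbered 93 in WT (140 as reported), 26 in Y36C and 7 under DMSO, and called boundary rows 13 in Y36C and 1 under DMSO. An offset of 0.1 point left 0 spliced rows called under DMSO. With a mean PSI of at least 5%, called boundary rows numbered 26 in WT (136 as reported), 7 in Y36C, 34 between genotypes under E7107 (141) and 30 in the interaction (132), and spliced rows under DMSO 0. With a change of at least 10 points, called boundary rows numbered 11, 5, 13 and 11 in these comparisons and spliced rows 12, 10, 15 and 12, with 0 under DMSO. An offset of 5 points, no filter on PSI, a fit on all 24 samples and, chosen after seeing the data, rows within the reference transcripts only kept every count within 1.5 times. For each of these differences the cause was not tested, except that the stricter filters admit fewer rows.

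The PKM exon 9 share at the exon 11 acceptor differed by 0.353 points with E7107 in WT cells, the opposite sign to the main value of -0.504, neither called, and by -0.520 in Y36C cells, no longer called. The genotype differences were called at both sites. Permuting treatment labels within each genotype, also chosen after seeing the data, gave a permutation p of 0.440 for the interaction, which stayed uncalled. The median over the 10 genes of mean retention moved with the summary: as the mean over all boundary rows it was 7.34% and 11.7% in WT cells (DMSO, then E7107) and 7.42% and 8.53% in Y36C cells, as the median over those rows 0.315% and 1.27%, and 0.240% and 0.425%, and over reference introns 0.475% and 1.46%, and 0.423% and 0.583%. Among named boundaries and junctions under the 7 alternatives of the fit, no called value changed sign. Calls were lost, however: 26 with PSI in percent as the response, 25 with the replicate block and 17 with an offset of 5 points. An offset of 0.1 point lost 7, no filter on PSI 7 and a mean PSI of at least 5% lost 6. Those lost included both ends of ENO1 intron 11 in WT cells and the acceptor of PKM intron 6 in Y36C cells.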
